A study of Rattus norvegicus with 6 samples.

Results

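The cadherin superfamily genes described here are the 80 symbols of the deposited rat retina gene table that read Cdh followed by a number, begin with Pcdh, or read Celsr followed by a number, out of 19859 symbols in all. They comprised 18 classical cadherins, 4 atypical cadherins, Cdh23, 12 non-clustered protocadherins, 42 clustered protocadherins and 3 Celsr genes. Each had 1 row in the table, so no values had to be summed. The series holds 6 neural retina samples at postnatal day 60 in 3 groups of 2. The groups are sham-operated Long Evans rats, a wild-type strain, sham-operated RCS (Royal College of Surgeons) rats, and RCS rats with human neural progenitor cells (hNPCs) placed under the retina. RCS rats carry an inherited photoreceptor degeneration. Surgery was at postnatal day 21, sham eyes received medium only, and about one side of each retina, the grafted side or its match, was taken. The labels do not say whether the samples of a group were separate animals.

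The table gives a single FPKM for each gene (fragments scaled to transcript length and sequencing depth), framed by 2 confidence bounds, and no column is tied to a sample. The values therefore compare genes within 1 library or pool, and the 3 groups cannot be compared. There are no replicates. The interval after each FPKM is the deposited one, and it covers the error of counting fragments, not the spread between animals. In bulk retina, fewer cells of a type and less RNA per cell cannot be told apart. Markers of the labelled tissue were high: 4 rod genes lay between 518 and 6316 FPKM, 3 bipolar cell genes between 15.1 and 113 FPKM and 3 Müller glia genes between 58.4 and 617 FPKM. Of markers of neighbouring tissues, 4 endothelial genes lay between 1.55 and 52.2 FPKM, 3 pigment epithelium genes between 0.270 and 152 FPKM, 3 epithelial genes between 0.903 and 4.43 FPKM and 2 lens crystallins at 118 and 427 FPKM.

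Cadherins are membrane proteins whose extracellular repeats bind calcium and stick to cadherins of the next cell. Classical cadherins hold junctions together through catenins, which link them to actin, and in the retina they build the outer limiting membrane between photoreceptors and Müller glia and help match bipolar, amacrine and ganglion cells in the synaptic layers. Non-clustered protocadherins are spread over the genome. Clustered protocadherins lie in tandem arrays (alpha, beta and gamma) from which each neuron uses a few, a code by which a neuron tells its own branches from those of others. Cdh23 and Pcdh15 form the tip links of inner ear hair cells and are mutated in Usher syndrome, in which deafness comes with photoreceptor loss.

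Most of these genes were detected at low levels, and a small number carried much of the family. Of the 80 members, 66 (82.5%) reached 1 FPKM, against 61.1% of all symbols. Their median was lower than that of the table, at 2.08 FPKM against 3.18 FPKM, and 23 of the 80 lay above the table's median. At 5 FPKM or more there were 15 members, against 42.8% of all symbols: 3 of 18 classical, 6 of 12 non-clustered and 4 of 42 clustered genes, and 2 Celsr genes. Only Cdh2 lay in the top 10% of symbols. Among the 3 main classes, non-clustered protocadherins had the highest median (4.66 FPKM, 10 of 12 at 1 FPKM or more), then classical cadherins (2.88 FPKM, 17 of 18), then clustered protocadherins (1.86 FPKM, 36 of 42). The width of the spread depended on its measure. The upper quartile was 4.62 times the lower quartile in the non-clustered class, 1.92 times in the classical class and 1.76 times in the clustered class. The highest gene was 13.1 times the median in the classical class, 5.43 times in the non-clustered class and 4.40 times in the clustered class. Without Pcdh15 the non-clustered median was 3.44 FPKM. Summed FPKM was split 34.1% to the clustered, 32.2% to the classical and 26.8% to the non-clustered class. Genes are not replicates, and no test was run between classes.

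**Figure D1:**
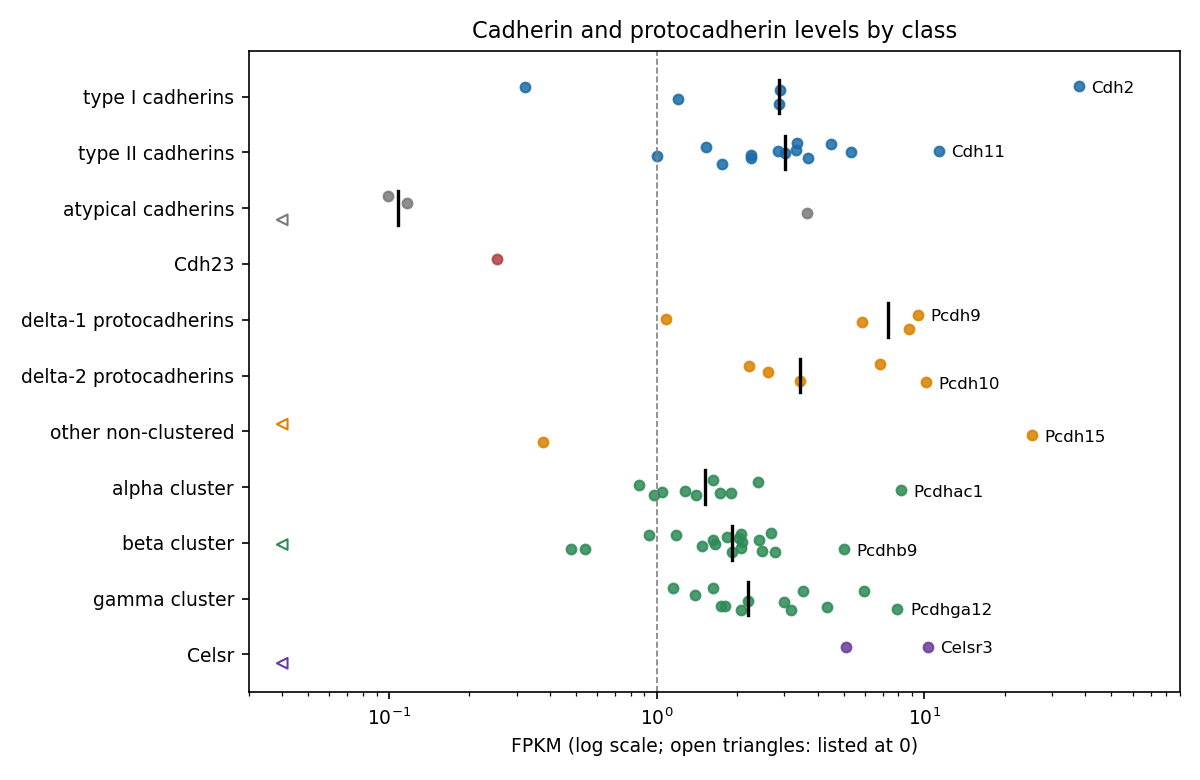
Each filled point is 1 gene at its FPKM (log axis), by class or, where a class is divided, by subclass. Black bars are medians where a row has 4 or more genes, open triangles at the left edge are genes listed at 0, and the dashed line is 1 FPKM. The highest gene of a row is named if it exceeds 4 FPKM. The clustered genes lie close together around their common median of 1.86 FPKM, while Cdh2 (37.8 FPKM) and Pcdh15 (25.3 FPKM) stand to the right of all others.

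Few neighbours in the order of FPKM could be told apart. Sorting sets the closest values side by side, so this does not speak to members further apart in the order. Among the 76 members above 0 there were 75 neighbouring pairs, and in 3 of them the 95% counting interval of the ratio lay above 1: Cdh2 over Pcdh15 (1.49 times, 1.34 to 1.66), Pcdh15 over Cdh11 (2.23 times, 1.98 to 2.52), and Cdh11 over Celsr3. The place of Pcdh15 is its place in FPKM. In implied fragments, Pcdh15 was 0.615 times Cdh11. Implied fragments are the number of fragments behind a value, derived from the deposited bounds and not counted. All other neighbours did not differ beyond counting error.

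Among the classical cadherins, Cdh2 (N-cadherin, the adhesion molecule of neurons and of the outer limiting membrane) stood at 37.8 FPKM (36.0 to 39.5) and held rank 1378 of the 19859 symbols. The other type I genes were far lower. Cdh4 (R-cadherin, named for the retina) was at 2.89 FPKM (2.20 to 3.58) and Cdh1 (E-cadherin, the adhesion molecule of epithelia) at 2.87 FPKM (2.40 to 3.34). Cdh2 was thus 13.2 times Cdh1 (counting interval 11.1 to 15.6) and 13.1 times Cdh4 (10.3 to 16.6). Cdh3 (P-cadherin, expressed in the pigment epithelium and mutated in an inherited macular dystrophy) was at 1.20 FPKM (0.842 to 1.57), an interval that spans 1 FPKM. Cdh15 (M-cadherin of muscle) was at 0.322 FPKM (0.119 to 0.526). One gene therefore carried most of the type I sum of 45.1 FPKM.

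All 13 type II cadherins reached 1 FPKM, against 61.1% of all symbols, and their sum of 46.1 FPKM was near that of type I. They were more even, with a median of 3.02 FPKM. Cdh11 (first described in bone-forming cells) led at 11.3 FPKM (10.5 to 12.2), 2.12 times Cdh7 (1.77 to 2.54), which was at 5.34 FPKM (4.45 to 6.24). Cdh24 followed at 4.47 FPKM (3.65 to 5.29), then Cdh18 at 3.67 FPKM (2.93 to 4.41) and Cdh20 at 3.36 FPKM (2.66 to 4.06). Beneath Cdh11 the type II genes ran down to 1.00 FPKM in small steps.

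Several type II genes mark single retinal neuron types, and these were all in the low range. CDH8 and Cdh9, which in mouse steer bipolar cell axons to different sublayers of the inner plexiform layer, were at 3.31 FPKM (2.70 to 3.92) and 2.25 FPKM (1.73 to 2.76), a ratio of 1.47 (1.10 to 1.97). CDH6, a marker of certain direction-selective ganglion cells, was at 2.25 FPKM (1.77 to 2.73), beside Cdh10 at 1.53 FPKM (1.12 to 1.94). CDH8 was thus above Cdh9 by more than counting error, while CDH6 and Cdh9 had nearly equal values. Cdh5 (VE-cadherin, of endothelial junctions) was the lowest of the type II genes at 1.00 FPKM (0.608 to 1.39), an implied 26 fragments. The 4 endothelial markers were unequal, with Kdr at 52.2, Cldn5 at 3.75, Pecam1 at 1.91 and Tek at 1.55 FPKM, and their part in the Cdh5 value was not tested.

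Of the atypical cadherins, only Cdh13 (T-cadherin, anchored in the membrane by a lipid and lacking a catenin-binding tail) reached 1 FPKM, at 3.66 FPKM (3.03 to 4.30). The others are known from epithelia. Cdh26 was at 0.117 FPKM and Cdh17 (of the gut and liver) at 0.0996 FPKM, each with a lower bound of 0 and an implied 3 and 4 fragments. Cdh16 (of the kidney) was listed at 0.

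**Figure D2:**
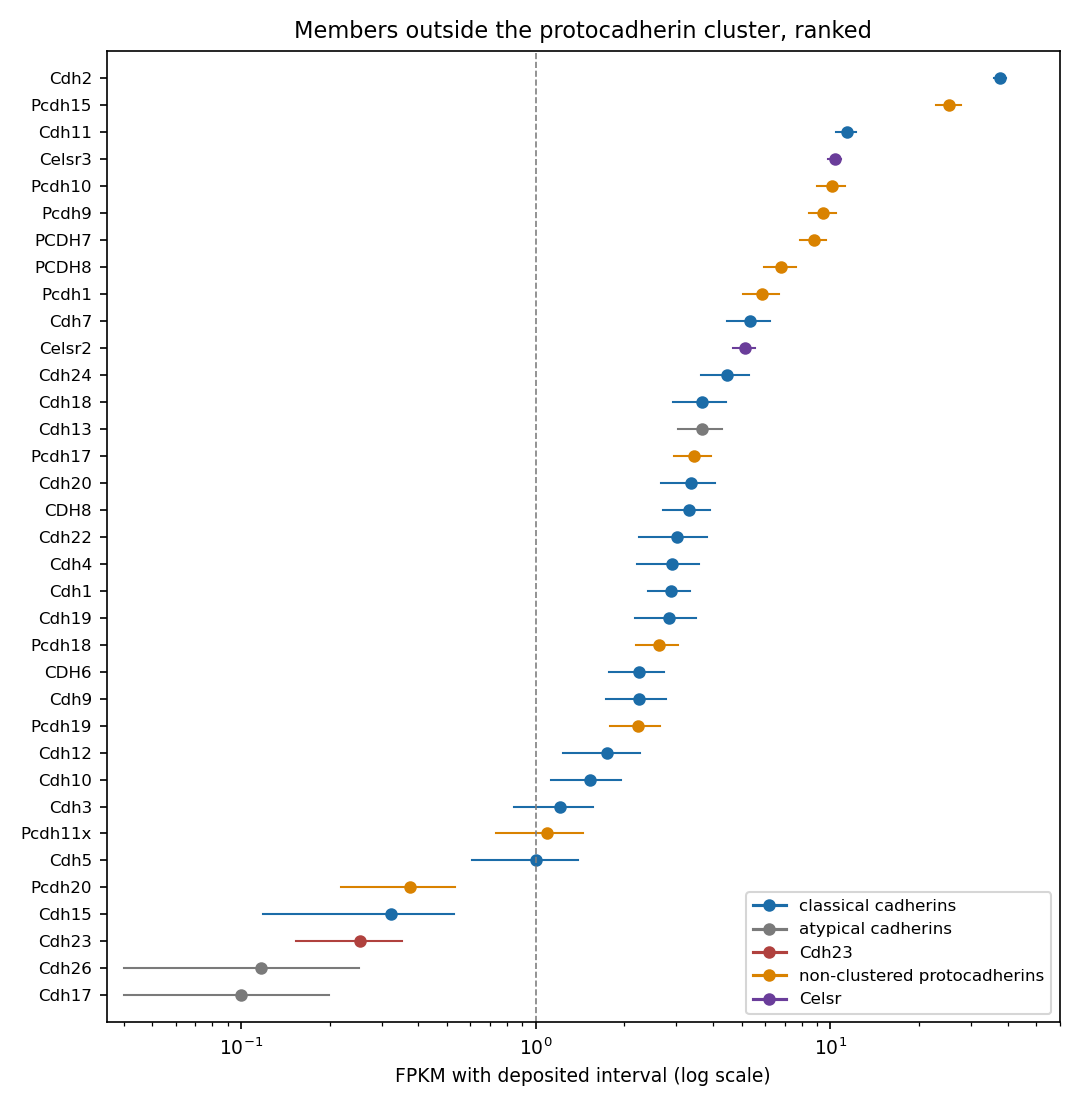
The 35 members outside the protocadherin cluster with a value above 0, ranked by FPKM on a log axis. Points are FPKM, horizontal lines are the deposited intervals (cut at the left edge where the lower bound is 0), colours are classes and the dashed line is 1 FPKM. The intervals of Cdh2 and Pcdh15 are apart from each other and from all genes beneath them, whereas the genes from Cdh24 (4.47 FPKM) to Pcdh19 (2.22 FPKM) form a run in which neighbouring intervals overlap.

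The tip-link genes did not stand at like levels. Pcdh15, on chromosome 20 (17136665 to 17521597, build rn5), was at 25.3 FPKM (22.9 to 27.8), rank 2249 of all symbols, whereas Cdh23, on the same chromosome (31669365 to 31817711), was at 0.253 FPKM (0.154 to 0.352), below 1 FPKM. The ratio was 99.96 with a counting interval of 67.3 to 149. Read as fragments and not per length, the gap was smaller: an implied 427 fragments for Pcdh15 against 26 for Cdh23, a ratio of 16.4. The 2 readings differ by the length implied for each value. That length is worked out from the same bounds as the fragments, so it is not a separate measure of why they differ. The deposited bounds imply a transcript length of 8550 bases for Cdh23 but only 1.57 kb for Pcdh15, whose gene row spans 385 kb. Unlike that of Cdh23, the implied fragment number of Pcdh15 (426.6) was not whole. What lies behind the short implied length was not tested, and it limits how far the value of Pcdh15 can be read per length.

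The other non-clustered protocadherins fall into the delta-1 genes, which have a longer ectodomain, and the delta-2 genes. Within delta-1, Pcdh9 was at 9.45 FPKM (8.43 to 10.5), PCDH7 at 8.77 FPKM (7.88 to 9.67), Pcdh1 at 5.87 FPKM (5.05 to 6.69) and the X-linked Pcdh11x at 1.09 FPKM (0.736 to 1.44). Pcdh9 and PCDH7 did not differ beyond counting error (ratio 1.08, 0.931 to 1.25). The row of Pcdh9 spans only 3124 bases and so covers a short stretch of what is known as a very long gene.

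All 5 delta-2 genes were above 2 FPKM. Pcdh10 (OL-protocadherin, which helps axons grow) led at 10.1 FPKM (9.04 to 11.2), and PCDH8 (arcadlin, a protein of active synapses) followed at 6.81 FPKM (5.95 to 7.66). Pcdh17 was at 3.44 FPKM (2.94 to 3.95), Pcdh18 at 2.62 FPKM (2.19 to 3.04) and Pcdh19, an X-linked gene mutated in an epilepsy of girls, at 2.22 FPKM (1.79 to 2.65). The delta-1 median was 7.32 FPKM and the delta-2 median 3.44 FPKM, with overlapping ranges. Pcdh15 exceeded Pcdh10 by 2.50 times (2.16 to 2.88). At the low end, Pcdh20 was at 0.376 FPKM (0.219 to 0.532), and Pcdh12, an endothelial protocadherin, was listed at 0.

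The Celsr genes, relatives of Drosophila flamingo that combine cadherin repeats with a receptor of the adhesion class and act in planar cell polarity and axon guidance, were unequal. Celsr3 was at 10.3 FPKM (9.80 to 10.9) and Celsr2 at 5.11 FPKM (4.68 to 5.55), a ratio of 2.02 (1.83 to 2.23). Celsr1 was listed at 0. Because their transcripts are long, the 2 detected genes held many fragments for their level: Celsr3 had an implied 1483 fragments, second among members to the 1801 of Cdh2.

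All 42 clustered protocadherin rows lie on chromosome 18 within 1012 kb (29648343 to 30660582, build rn5), 10 in the alpha, 19 in the beta and 13 in the gamma array. Most levels were low, with 29 of the 42 rows between 1 and 3 FPKM, but single rows ran from 0 (Pcdhb1) to 8.20 FPKM (Pcdhac1). The medians were 1.52 FPKM for alpha, 1.91 FPKM for beta and 2.20 FPKM for gamma. In the same order 8, 15 and 13 members reached 1 FPKM, as did 61.1% of all symbols. Of those counted, PCDHA1, PCDHA3, Pcdha8, Pcdha9 and Pcdhb20 have intervals that span 1 FPKM. The intervals of the members at the middle of the 3 arrays overlap. All 13 gamma members reached 1 FPKM, though the intervals of Pcdhga5 and Pcdhgb8 span that level.

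Before their start sites the beta genes share a short sequence. In known biology a conserved element in most clustered protocadherin promoters binds the insulator protein CTCF, which loops the chosen promoter to a distant enhancer. RefSeq promoters of build GRCr8 (250 bases before to 50 after a gene's start) matched 54 of the 80 members by symbol. The run of 10 bases held by the most beta promoters, GGTGGCGCTG, was searched on both strands. The likeness was first seen by reading the promoters, and the rule that picks the run was written afterwards, so its count among beta promoters is a description that the choice fixes. It was in 13 of 15 beta promoters, in none of the 13 gamma promoters (2 of them for Pcdhga4), the 1 alpha promoter and the 26 promoters of the other members, and in 0.221% of all 33469 promoters. It lay 46 to 208 bases before the start. The rule that picks the run counts on the strand of the gene only, so its lying on that strand each time follows from the choice. The following windows, written 5′ to 3′ with the shared run in capitals, show how far the likeness extends in members of high, middle and low level.
Pcdhb9 (5.01 FPKM, chr18:29379238-29379287, plus strand): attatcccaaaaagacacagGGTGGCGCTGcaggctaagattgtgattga
Pcdhb5 (2.42 FPKM, chr18:29302394-29302443, plus strand): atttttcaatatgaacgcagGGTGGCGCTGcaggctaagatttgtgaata
PCDHB7 (1.91 FPKM, chr18:29328988-29329037, plus strand): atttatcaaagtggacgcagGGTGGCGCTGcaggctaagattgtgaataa
Pcdhb3 (1.66 FPKM, chr18:29285594-29285643, plus strand): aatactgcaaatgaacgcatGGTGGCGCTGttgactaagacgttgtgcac
Pcdhb21 (0.538 FPKM, chr18:29492139-29492188, plus strand): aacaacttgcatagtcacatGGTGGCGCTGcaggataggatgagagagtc
Pcdhb2 (0.481 FPKM, chr18:29279913-29279962, plus strand): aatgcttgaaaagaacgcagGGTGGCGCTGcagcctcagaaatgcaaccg

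Among beta members with a value above 0, the highest (Pcdhb9) and the lowest (Pcdhb2) both hold the run. The 13 beta members with it had a median of 1.91 FPKM (0.481 to 5.01), and of the 2 without it in this window Pcdhb15 was at 1.62 FPKM and Pcdhb1 was listed at 0. Gamma promoters shared another run by the same rule, also written after they were read, GCTGTTCACC, in 7 of 13 gamma promoters against 0.120% of all promoters and 0 of 15 beta promoters. It is shown for the highest and the lowest of these 7 genes and for one between them.
Pcdhga12 (7.94 FPKM, chr18:29843858-29843907, plus strand): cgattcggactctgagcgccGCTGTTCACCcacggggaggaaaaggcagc
Pcdhga8 (2.20 FPKM, chr18:29804996-29805045, plus strand): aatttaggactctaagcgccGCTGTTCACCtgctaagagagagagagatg
Pcdhga5 (1.16 FPKM, chr18:29770899-29770948, plus strand): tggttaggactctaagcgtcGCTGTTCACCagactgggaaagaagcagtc

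The 7 gamma genes with the run had a median of 2.20 FPKM (1.16 to 7.94), and the 5 matched gamma genes without it a median of 1.80 FPKM (1.40 to 3.54). The gamma run begins with the letters that end the beta run. A match describes the letters of a window and is not evidence of binding.

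Within the alpha array, Pcdhac1 was far above its neighbours at 8.20 FPKM (7.35 to 9.05), PCDHA7 was at 2.40 FPKM (1.80 to 3.004) and PCDHA4 at 1.90 FPKM (1.37 to 2.43). The 3 lowest were PCDHA1 at 1.04 FPKM, PCDHA5 at 0.977 FPKM and PCDHA6 at 0.863 FPKM, all with intervals that span 1 FPKM. In the beta array, Pcdhb9 led at 5.01 FPKM (4.27 to 5.75), followed by Pcdhb19 at 2.77 FPKM (2.13 to 3.41) and Pcdhb10 at 2.67 FPKM (2.06 to 3.27), while Pcdhb2 at 0.481 FPKM (0.214 to 0.748) and Pcdhb21 at 0.538 FPKM (0.285 to 0.792) stayed below 1 FPKM. In the gamma array, Pcdhga12 was at 7.94 FPKM (6.99 to 8.89), Pcdhgb7 at 5.93 FPKM (5.03 to 6.83) and Pcdhga1 at 4.32 FPKM (3.53 to 5.12). Among the 40 neighbouring pairs of clustered members above 0, Pcdhga12 over Pcdhgb7 was the one pair whose ratio (1.34, 1.11 to 1.62) exceeded counting error. The other 39 adjacent pairs, which sorting makes the closest in value, did not differ beyond counting error.

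The rows of the cluster do not all measure the same thing. In known gene structure each alpha or gamma gene joins its own first exon to exons shared by its array, whereas beta genes consist of 1 exon. Of the 42 rows, 37 span at most 3500 bases. The 4 rows over 20 kb are Pcdha8, Pcdha9 and Pcdhac1, which end at the same base (29924444), and Pcdhga12. Pcdhac1 and Pcdhga12 are the highest of their arrays, and whether fragments from shared exons of other array members were counted in them was not tested. Without the 4 rows the clustered median stayed at 1.86 FPKM. It could not change, since Pcdhac1 and Pcdhga12 lie above it and Pcdha8 and Pcdha9 below it. The alpha median did change, from 1.52 to 1.28 FPKM, with 5 of the 7 remaining alpha rows at 1 FPKM or more. Pcdha8 (1.72 FPKM, 0 to 4.50) and Pcdha9 (1.40 FPKM, 0 to 4.09) overlap each other and Pcdhac1, and their intervals reach 0, so neither is distinguished from 0 although both count as above 1 FPKM.

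**Figure D3:**
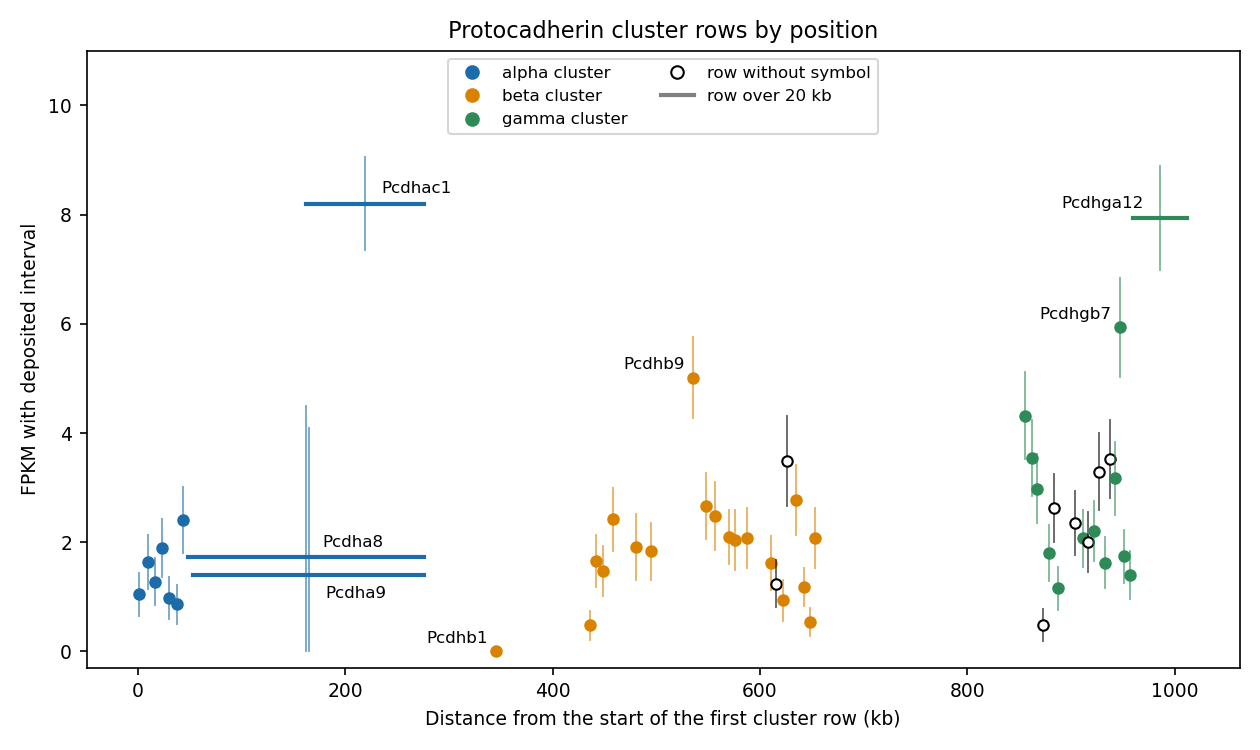
FPKM of the cluster's rows against their distance from its start in kb. Points are rows of up to 10.8 kb, thick horizontal lines are rows over 20 kb drawn to their extent, vertical lines are deposited intervals, colours are the arrays and open black points are rows of like size without a symbol. Most rows lie between 1 and 3 FPKM over the whole 1012 kb, and Pcdhac1 (8.20 FPKM) and Pcdhga12 (7.94 FPKM), the highest, are both long rows.

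Clustered genes resemble one another closely in sequence, and their implied fragment numbers were often fractional. The number of fragments behind a row follows from its FPKM and upper bound if the bound lies 2 standard errors above. Among members with at most 200 such fragments, the number was within 0.02 of a whole number in 24 of 25 members outside the cluster but in 16 of 39 clustered members. Above 200 fragments, members outside the cluster were mixed. Cdh2 (1800.62), Pcdh15 (426.597) and Pcdh10 (340.415) were not whole, whereas Celsr2, Pcdh9, PCDH7, Pcdh1 and PCDH8 were. Celsr3 (1482.84) and Cdh11 (693.977) cannot be classed. Rounding of the deposited digits can shift their numbers by more than their distance from a whole number. Fractions were most frequent in alpha (1 of 9 whole) and beta (6 of 18 whole) and less so in gamma (9 of 12 whole). PCDHB7, for example, had 39.8 fragments, Pcdhb22 55.8 and Pcdhb9 183.2. Programs of this kind can divide a read that maps to several places among them; whether this was done here was not tested. The separate values of the clustered genes are uncertain to that extent.

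The same numbers gave the depth. Over the 36 clustered rows of at most 3500 bases with a value above 0, fragments per FPKM rose in a straight line with the row's span, from 2319 to 3376 bases, with no row off the line by more than 0.0886 bases. If the bounds lie at 2 standard errors, its slope corresponds to a depth of 12304278 fragments and its offset to 201 bases. The implied fragments of all 19859 symbols summed to 5.88e+06, less than that depth, and the difference was not tested. Pcdh9, which was not used for the line, was predicted at 3124.1 bases against a span of 3124. Because FPKM is fragments scaled to length and depth, the line and this match follow from its definition. They do not test the assumed bound of 2 standard errors, on which the slope rests. At this depth a gene of 2.4 kb at 1 FPKM rests on about as many fragments as Pcdhb17 (25.3 at 0.936 FPKM). Accordingly 13 members had intervals that span 1 FPKM, among them Cdh5, Cdh3, Pcdh11x and 10 clustered genes, and 56 members had a lower bound at or above 1 FPKM. Just outside the level were PCDHA5 (0.977 FPKM) and Pcdhb17, and just inside it Cdh5 and PCDHA1.

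The 4 lists of genes that work with cadherins had medians above the 2.08 FPKM of the members. Against the median of all symbols (3.18 FPKM), that of the Usher and tip-link partners (2.84 FPKM) was lower and those of the other lists were higher. The counts that follow stand beside the 61.1% of all symbols at 1 FPKM or above. Of 13 catenins and junction anchors, 12 were at 1 FPKM or above (list median 13.3 FPKM). Ctnnb1 (beta-catenin, which binds the classical cadherin tail) was at 82.3 FPKM (79.4 to 85.1), Tjp1 (a tight junction scaffold) at 26.7 FPKM (25.6 to 27.9) and Ctnna1 (alpha-catenin, the link to actin) at 16.5 FPKM (15.3 to 17.8). Ctnna3 (heart and testis alpha-catenin) was at 0.354 FPKM summed over 2 rows.

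Genes listed as partners of the tip-link cadherins covered a wide range. The list holds genes of the Usher protein complex and also Tmie and Lhfpl5, which are not of that complex. Of the 10 matched genes (of 11 listed), 7 were at 1 FPKM or above (list median 2.84 FPKM). Dfnb31 (whirlin, a scaffold) was at 32.4 FPKM (30.4 to 34.4), Cib2 (a calcium-binding protein) at 9.45 FPKM (7.07 to 11.8) and Gpr98 (a very large adhesion receptor) at 7.23 FPKM (6.37 to 8.09). Myo7a, the motor of the complex, was at 0.443 FPKM and Ush1g, its scaffold, at 0.0682 FPKM. Tmie was at 0.780 FPKM (0.454 to 1.10), while Ush1c was at 6.74 FPKM (5.68 to 7.81). Pdzd7 was at 3.41 FPKM, Lhfpl5 at 2.27 FPKM and Clrn1 at 1.02 FPKM (0.407 to 1.64). Cdh23 thus lay below 1 FPKM with Myo7a, Ush1g and Tmie (the last with an interval that spans 1 FPKM), whereas Pcdh15 (25.3 FPKM) lay between Dfnb31 and Cib2.

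Cadherin-repeat genes whose names fall outside the rule included 2 far above any member. Cdhr1 (photoreceptor cadherin, of the rod and cone outer segment base) was at 396 FPKM (391 to 402), 10.5 times Cdh2 (10.004 to 11.02), and the calsyntenin gene Clstn1 was at 238 FPKM (234 to 243). Clstn3 followed at 15.8 FPKM (14.5 to 17.2). Of the 20 genes matched of 23 on that list, which also holds the Fat, Dachsous and desmosomal genes, Fjx1 and Ret, 10 were at 1 FPKM or above (list median 1.55 FPKM). Of 10 planar polarity genes, which act with the Celsr proteins, 8 were at 1 FPKM or above (list median 6.49 FPKM). The highest were Dvl1 at 14.7 FPKM (13.4 to 16.0), Ankrd6 at 14.6 FPKM (13.6 to 15.7) and Dvl3 at 11.2 FPKM (9.74 to 12.6).

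All 18 genes listed as regulators or effectors of protocadherins were at 1 FPKM or above (list median 18.8 FPKM). First came Cyfip2 (of the actin-regulating WAVE complex) at 76.7 FPKM (74.7 to 78.7), the cohesin subunit gene Rad21 at 64.7 FPKM (62.2 to 67.2) and Nckap1 (also of the WAVE complex) at 40.9 FPKM (39.1 to 42.8). Ctcf, which binds clustered protocadherin promoters, was at 31.5 FPKM (29.8 to 33.2), far above any clustered gene.

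**Figure D4:**
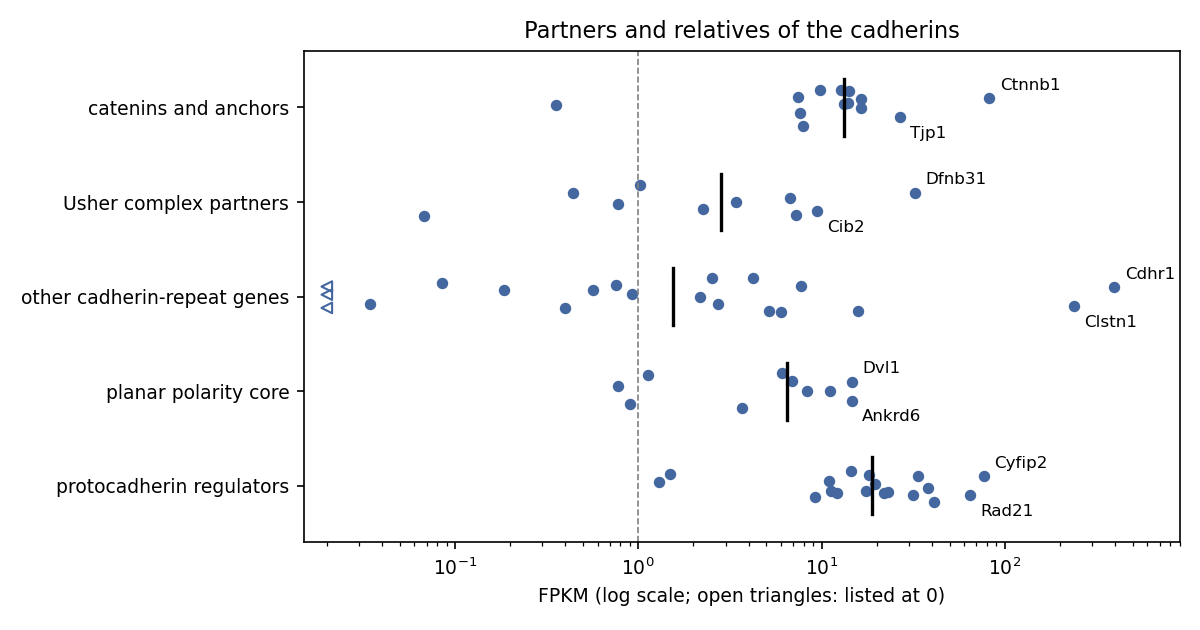
FPKM (log axis) of the 5 lists of related genes. Points are genes, black bars are list medians, open triangles are genes listed at 0, the dashed line is 1 FPKM and the 2 highest genes of each list are named. The medians of catenins and protocadherin regulators lie to the right of those of the other lists, and Cdhr1 (396 FPKM) and Clstn1 (238 FPKM) lie right of all others.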

How the data were processed

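RNA of 6 rat neural retina samples was sequenced. Per the file headers, the authors deposited 1 gene table in Cufflinks format with an FPKM and its lower and upper bound; per the submitters' processing notes, Cufflinks 2.0.8 and build rn5 were used. Nothing on the aligner, annotation release, confidence level or pooling is given in the sources used here. No column names a sample, so the planned comparison of groups with limma was not run. Of 26406 rows, 20601 carry a symbol.

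Rows sharing an exact symbol were summed (Python 3.11.15, pandas 2.3.3, numpy 2.4.6). Related genes were matched ignoring case. Implied fragments are the square of 2 × FPKM / (upper bound − FPKM), which assumes bounds at 2 standard errors. The calculation was tested on simulated data whose bounds were built by the same rule, which checks the arithmetic and not the assumption. Ratios of FPKM have 95% intervals from the same standard errors, for counting error only. Coordinates are as the file gives them. The members and lists were chosen with earlier results of these data known. The text names Pcdh15 and Cdh23, members at 5 FPKM or more, the 3 highest of each class and of each related list, members near 1 FPKM or at 0, and others chosen after their values were seen. Symbols are spelled as in the table. A rod marker and a gene of a related list are not reported here.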

Additional observations from a re-analysis of the deposited data

How the results depend on the processing

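Of 47 other settings tried over 12 results, 35 stayed within 1.5 times the count or within the counting interval. At a minimum of 5 FPKM in place of 1, the counts fell to 15 of all members, 3 classical, 6 non-clustered and 4 clustered genes, where 42.8% of all symbols reached that level. With implied fragments in place of FPKM, the shares of the member total were 33.3% for classical, 21.7% for non-clustered and 25.5% for clustered genes, so the clustered class no longer led, and the ratio of Pcdh15 to Cdh23 was 16.4. Without Cdh2, the shares were 21.7%, 31.0% and 39.3%. Without the 4 clustered rows over 20 kb (an alternative chosen after seeing the data), the clustered share was 29.3%. Each member has 1 row of status OK, so keeping the highest row or rows of status OK could not change a value. No paired analysis was possible because no value belongs to a named library. Leaving out a replicate and another pseudocount were not run, since both need values per library.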

Other observations

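Between the named clustered protocadherin rows of chromosome 18 lay 8 rows of 1891 to 2418 bases without a symbol, 2 among the beta and 6 among the gamma genes. Their place and size are like those of the named rows, but the file gives them no name and they were not counted as members. Their median was 2.48 FPKM (0.485 to 3.52), and 7 of the 8 reached 1 FPKM. Taf7, a transcription factor gene with its own row between the beta and gamma arrays, was at 16.0 FPKM (14.2 to 17.8), above every clustered protocadherin row.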
